A study of Mus musculus with 4 samples.

Results

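The 10 genes described here, MT-CO1, MT-CO2, MT-CO3, MT-ATP6, MT-CYTB, MT-ND1, MT-ND2, MT-ND3, MT-ND4 and MT-ND5, are encoded by mitochondrial DNA and give subunits of the respiratory chain and of ATP synthase. They were taken as a list of names, and no measured value entered the choice. Of the 10 genes, 7 had a row in at least 1 of the 4 count tables and 6 had a row in all 4, among 25825 gene symbols in the tables together. MT-CO2, MT-ATP6 and MT-ND3 had no row, and MT-CO3 had a row in 1 table with 1 count. Single cell RNA-seq had been run on testes of 2 WT mice (Ctcf wt/wt by the labels) and 2 Ctcf-cKO mice (Stra8-iCre-Ctcf f/Δ), 1 library per mouse. All were 15 weeks old, and the labels give their background strain as C56BL/6J. The paper lists Ctcf f/f, wt/f or wt/wt for its WT littermates. In the Ctcf-cKO mice iCre is driven by the Stra8 promoter, which is active in germ cells from differentiating spermatogonia on, so Cre does not act in the somatic cells, which carry 1 floxed and 1 deleted allele. Ctcf had no count in the somatic-like cells of any mouse. The suspensions were washed in PBS against erythrocytes, and a pooling of filtrates from separate tubes is stated for Ctcf-cKO. Values of single mice are given below in the order WT replicates 1 and 2, then Ctcf-cKO replicates 1 and 3.

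Mitochondrial DNA is a small circle present in many copies per cell. Its genes are transcribed inside the organelle into long precursors, which are cut at the transfer RNAs and receive short poly(A) tails. A method that captures the 3′ ends of polyadenylated RNA therefore counts these messengers beside those of the nucleus. MT-ND1 to MT-ND5 encode subunits of complex I, MT-CYTB the cytochrome b of complex III, MT-CO1 to MT-CO3 the catalytic core of complex IV, and MT-ATP6 a proton channel subunit of complex V. In the testis, spermatocytes and round spermatids carry many dispersed mitochondria. In elongating spermatids part of them is arranged around the midpiece of the tail and part is shed with the cytoplasm.

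The messenger ends, which a 3′ method reads, are shown to mark the genes that have a near-identical nuclear copy there. Each line holds the last 60 bases of a GENCODE transcript on GRCm38, 5′ to 3′ on the plus strand of chromosome M. Capitals mark the bases that also stand in a nuclear copy with over 99% identity that reaches to within 10 bases of the end of the gene.
MT-CO1: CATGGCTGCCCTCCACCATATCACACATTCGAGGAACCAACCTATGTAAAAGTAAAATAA
MT-CO2: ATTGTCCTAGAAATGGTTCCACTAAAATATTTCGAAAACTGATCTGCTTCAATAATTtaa
MT-CO3: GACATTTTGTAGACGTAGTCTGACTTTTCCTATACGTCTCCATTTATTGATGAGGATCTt
MT-ATP6: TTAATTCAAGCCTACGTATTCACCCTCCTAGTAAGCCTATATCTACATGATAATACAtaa
MT-ND3: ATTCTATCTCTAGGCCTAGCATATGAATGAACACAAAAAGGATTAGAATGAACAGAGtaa
MT-CYTB: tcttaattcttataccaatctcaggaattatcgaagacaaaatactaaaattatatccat
MT-ND4: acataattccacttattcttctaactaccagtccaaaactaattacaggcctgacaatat

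Of the 10 genes, 5 had such a copy, and these were MT-CO1, MT-CO2, MT-CO3, MT-ATP6 and MT-ND3. Their copies are pseudogenes in 1 stretch of chromosome 1, on the minus strand. Gm29216 (chr1:24615706-24616197) matched the last 483 bases of MT-CO1 (chrM:5328-6872) at 99.793% identity, with the single difference A1066T, counted from 1 at the first base of the MT-CO1 transcript. Gm28661 (chr1:24614885-24615565) matched 681 bases of MT-CO2 (chrM:7013-7696) without a difference. Gm28437 (chr1:24613189-24613971) matched 783 bases of MT-CO3 (chrM:8607-9390) and Gm10925 (chr1:24613974-24614651) matched 678 bases of MT-ATP6 (chrM:7927-8607), both at 100%. Gm28438 (chr1:24612775-24613119) matched 345 bases of MT-ND3 (chrM:9459-9806) with the difference T3C. The ends of the other 5 genes had no such copy. MT-ND1 (chrM:2751-3707) aligned to no annotated nuclear transcript. MT-ND2 (chrM:3914-4951) aligned to Gm13339 at 96.667% identity and MT-CYTB (chrM:14145-15288) to Gm11410 at 92.907%. The copy of MT-ND4 (chrM:10167-11544) stopped 502 bases before its end, and that of MT-ND5 (chrM:11742-13565) stopped 165 bases before it. All 5 genes without a near-identical copy at the end were counted in every mouse, and of the 5 with one only MT-CO1 was. The sources do not state how reads with several matching places were counted, and the part of these copies in the missing rows was not tested.

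The libraries held 6701235, 4859455, 2652665 and 1593546 counts, so both Ctcf-cKO libraries were shallower than both WT libraries. A plateau of shallow barcodes at 1092, 544, 278 and 194 counts held 3840 of 5603, 2761 of 6474, 3238 of 5919 and 3038 of 6407 barcodes, and 946 barcodes with at least 3 times that number (118, 272, 267 and 289) were taken as cells. A limit of 200 genes per barcode fell at different places of the libraries. It had 0 of 3840, 1041 of 2761, 3233 of 3238 and 3038 of 3038 plateau barcodes below it. Ctcf, the gene deleted, had 110, 49, 4 and 7 counts over all barcodes (log2 fold change -2.19, SE 0.672, adjusted p = 0.0292, edgeR quasi-likelihood F test). It was not called on the plateau (-1.69, adjusted p = 0.219, edgeR) or in all cells kept (-2.36, adjusted p = 0.166, edgeR), and in round spermatid-like cells it was at 9.72, 3.53, 0 and 34.5 CPM, so Ctcf-cKO replicate 3 stood highest there, on 4 counts from 1 cell. The tables shared 2716 barcode sequences, and 1 was shared among the cells kept. Clusters named by marker genes gave 79 spermatocyte-like, 228 round spermatid-like, 162 elongating spermatid-like, 104 Leydig-like and 143 other somatic-like cells (peritubular or macrophage genes), and 230 cells stayed unnamed. Rows starting with MT- took no part in the clustering. In the elongating spermatid-like cluster 18 of 20 elongating spermatid markers were enriched, yet HBB-BS, a haemoglobin gene of red blood cells, led it. The same gene led a macrophage-like cluster of 62 cells, in which 12 macrophage and 8 Sertoli markers were enriched.

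Over all barcodes of a mouse, every counted gene of the list stood higher in Ctcf-cKO than in WT, by 6.79 to 16.5 times in mean CPM (counts scaled to the same total in every mouse), and all 6 rose by edgeR's quasi-likelihood F test. In that comparison 28.5% of all 14553 genes tested were called, 2672 higher and 1477 lower. The median log2 fold change was 3.85 over the 6 genes and -0.04 over all genes tested. Such sums cannot tell more cells of a type from more RNA per cell. Since each genotype has 2 mice, the spread of a gene comes from 2 libraries a group. The edgeR fit draws it toward the spread of all genes tested (prior degrees of freedom 10.3 over all barcodes), so p-values rest on both.

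Among the complex I subunits, MT-ND4, a membrane arm subunit, was at 600.3, 802.6, 10172 and 12921 CPM. Its log2 fold change was 4.10 (SE 0.209, adjusted p = 4.66e-07, edgeR). MT-ND1, which lies where the membrane arm meets the quinone site, was at 284.9, 470.8, 3870 and 4367 CPM, with a log2 fold change of 3.50 (SE 0.244, adjusted p = 2.16e-06, edgeR). Both WT mice lay far below both Ctcf-cKO mice for either gene, and WT replicate 1 was the lowest. MT-ND2, another membrane arm subunit, was at 123.0, 168.5, 1783 and 2078 CPM. The difference for MT-ND2 was 3.79 on the log2 scale (SE 0.218). MT-ND5, the distal membrane arm subunit, was the lowest of these 4 genes at 27.8, 37.7, 408.3 and 539.7 CPM, with a difference of 3.92 (SE 0.251). The groups did not overlap for any of these 4 genes, and both Ctcf-cKO mice lay above both WT mice in 32.3% of all genes tested over all barcodes.

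MT-CYTB, the subunit of complex III that holds its haem b groups, was at 594.5, 857.3, 9948 and 12615 CPM. Its log2 fold change was 4.02 (SE 0.222, adjusted p = 8.55e-07, edgeR). In complex IV, MT-CO1, which holds the site of oxygen reduction, was at 35.4, 37.0, 210.4 and 281.1 CPM, from 237, 180, 558 and 448 counts. Its log2 fold change of 2.82 (SE 0.235, adjusted p = 7.54e-06, edgeR) was the smallest of the 6 genes over all barcodes. It was also the smallest in each of the other genotype comparisons below in which all 6 were tested, though differences between genes were not tested. MT-CO3 had 1 count in Ctcf-cKO replicate 1, and no value can be given for MT-CO2 or, in complex V, for MT-ATP6.

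**Figure D1:**
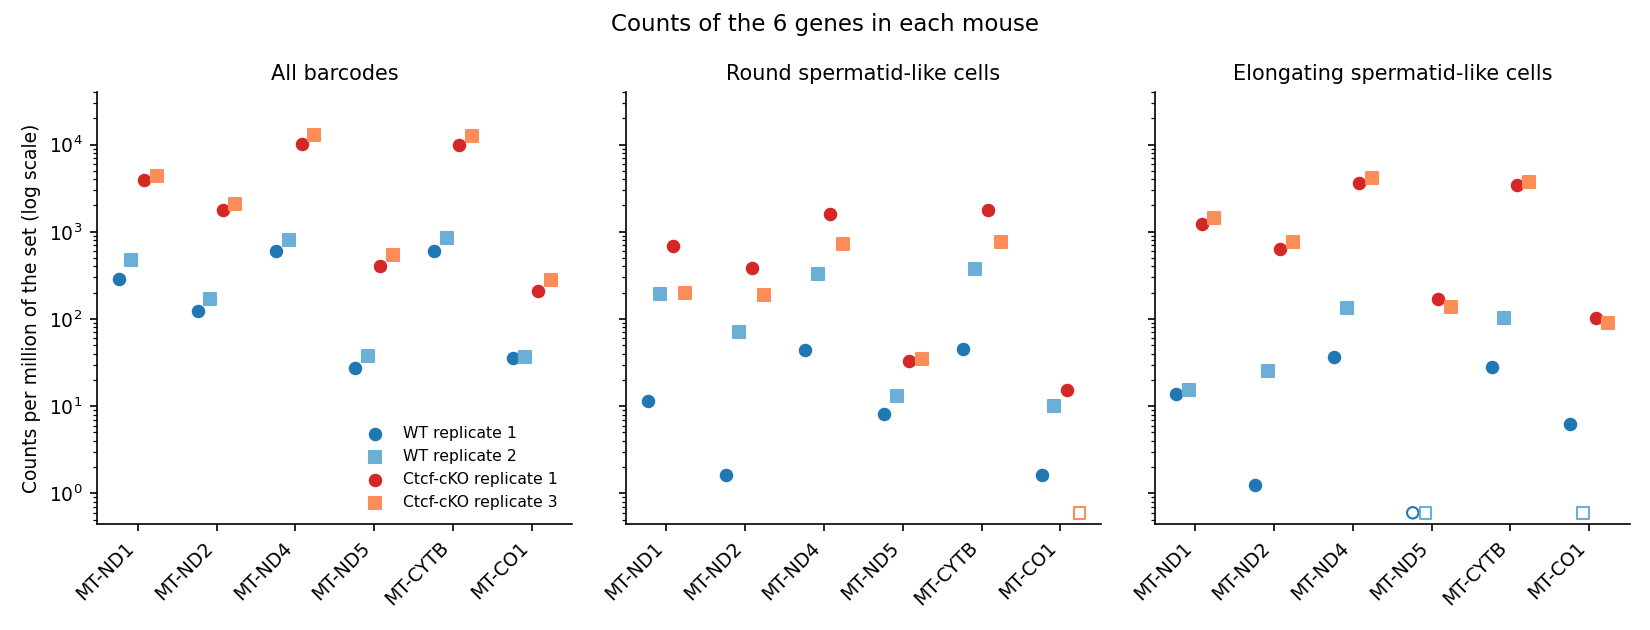
Level of the 6 counted genes (CPM, log axis) in each mouse, 1 point per mouse, over all barcodes and in round and elongating spermatid-like cells. Open points at the bottom stand for 0 counts. Over all barcodes the Ctcf-cKO points of MT-CYTB (9948 and 12615 CPM) lie above the WT points (594.5 and 857.3), and in elongating spermatid-like cells every Ctcf-cKO point lies above both WT points.

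Per kilobase of transcript, the order of levels over all barcodes was MT-CYTB, MT-ND4, MT-ND1 and MT-ND2 in each of the 4 mice. MT-CYTB was at 519.7, 749.4, 8696 and 11027 CPM per kilobase. At the low end, MT-CO1 (22.9 and 24.0 CPM per kilobase) stood above MT-ND5 (15.2 and 20.6) in the WT mice, and below it in the Ctcf-cKO mice (136.2 and 182.0 against 223.8 and 295.9). A 3′ method does not sample the length evenly, so the order holds for these values only. The makeup of the genes' summed counts moved far less than their level. MT-CYTB took 35.7%, 36.1%, 37.7% and 38.5% of it and MT-ND4 36.0%, 33.8%, 38.5% and 39.4%. MT-ND1 took 17.1%, 19.8%, 14.7% and 13.3%, and MT-CO1 2.1%, 1.6%, 0.8% and 0.9%. MT-ND2 took 7.4%, 7.1%, 6.8% and 6.3%. For MT-ND1, MT-ND2 and MT-CO1 both WT mice lay above both Ctcf-cKO mice, and for MT-CYTB and MT-ND4 below both.

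Summed over the list, the genes took 0.167%, 0.237%, 2.64% and 3.28% of all counts. The share depended strongly on which barcodes were counted. Barcodes under 200 genes gave 0.086%, 0.553%, 5.29% and 5.76%, and plateau barcodes 0.212%, 0.474%, 5.26% and 5.83%. The cells kept gave 0.070%, 0.104%, 0.769% and 1.09%. In each of the 4 mice the low barcodes thus held a larger share than the cells. For barcodes under 200 genes in WT replicate 1 this was within counting error (95% Wilson intervals 0.0698 to 0.105% against 0.0661 to 0.0733%). Counted per barcode, plateau barcodes held 2.29, 2.61, 15.5 and 12.0 counts of the list, and the cells kept 11.9, 10.3, 44.0 and 31.8. Barcodes with over 10% of counts from rows starting with MT- numbered 7, 20, 1035 and 1490, and none of the Ctcf-cKO ones had 200 genes. A filter at 10% removed none of the 946 cells.

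The share fell with depth in the Ctcf-cKO mice. In barcodes with less than 0.1 times the plateau count it was 6.71% and 6.91%, at the plateau count to 2 times it 5.17% and 5.75%, and from 16 times on 0.600% and 0.732%. WT replicate 2 went from 0.592% to 0.062% over the same range. In WT replicate 1 the share was 0.092% at the low end, 0.235% at the plateau, 0.290% at 8 to 16 times it (0.088% without 1 cell that held 631 counts of the list) and 0.013% above. The counts of these genes per barcode rose with depth in both Ctcf-cKO mice and WT replicate 2, from 0.995, 0.674 and 0.142 in the lowest bin to 59.2, 46.1 and 12.1 in the deepest. Barcodes can also be taken by their counts. Those with 200 to 500 counts held 0.178%, 0.471%, 5.28% and 5.53%, those with 2000 to 5000 counts 0.265%, 0.221%, 1.28% and 1.23%, and those with 5000 to 10000 counts 0.593%, 0.163%, 0.829% and 0.909%. Both Ctcf-cKO mice lay above both WT mice in each of these ranges, and without that same cell WT replicate 1 was at 0.247% in the last. The same counts lie at different places relative to the plateau of each library. Depth and genotype go together in these 4 libraries and cannot be told apart for the counts as a whole.

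**Figure D2:**
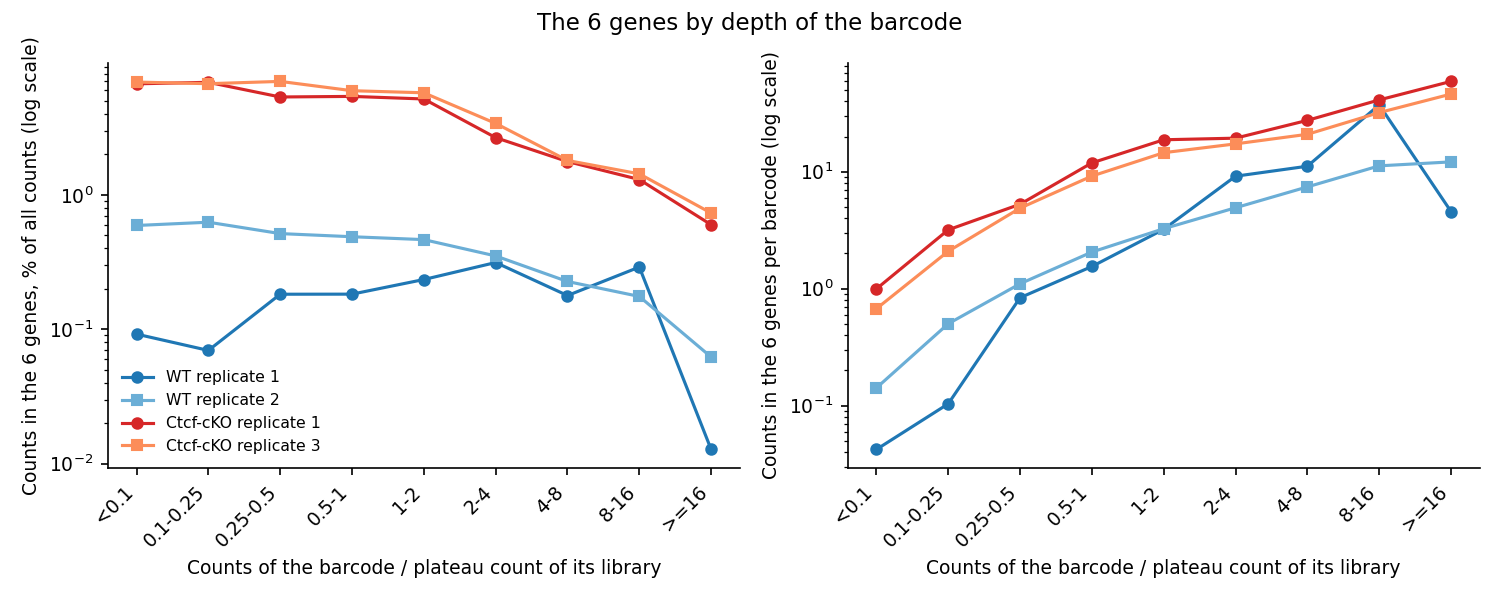
Share of counts from the 6 genes (left, percent, log axis) and their counts per barcode (right, log axis) by depth of the barcodes relative to the plateau count of their library, 1 line per mouse. The Ctcf-cKO shares fall from 6.71% and 6.91% to 0.600% and 0.732%, while their counts per barcode rise.

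By edgeR, all 6 genes rose in Ctcf-cKO among barcodes under 200 genes, where 6.42% of genes tested were called, with log2 fold changes of 2.69 (MT-CO1) to 4.50 (MT-ND4). DESeq2 called 3 of them, and without Ctcf-cKO replicate 3 the calls of MT-CYTB and MT-ND4 were lost (adjusted p = 0.171 and 0.133, edgeR). In such a fit the genotype with 1 library is assumed to vary like the other. In WT replicate 1 this set has 90 counts of the list in 1367 barcodes and no plateau barcode, so it does not hold the same kind of barcode as in the other mice. On the plateau itself, where 6.75% were called, all 6 rose as well, from 3.06 (SE 0.421) for MT-CO1 to 4.41 (SE 0.514, adjusted p = 0.00152, edgeR) for MT-ND4. Over all cells kept, with 19.2% called, all 6 rose by 2.5 (MT-CO1) to 3.65 (MT-ND4). Barcodes under 200 genes were set against the classed cells of the same mice. Here 0.204% of the genes tested were called, 22 in all, and all 6 genes of the list were among them. In the fit they were higher in the low barcodes by 2.03 (MT-ND1, SE 0.446) to 2.53 (MT-CO1, SE 0.403). In WT replicate 1, however, the low barcodes lay below the classed cells in MT-ND1 (99.5 against 160.2 CPM per kilobase), MT-CO1 (0 against 14.5) and MT-ND5 (0 against 6.95). Over the alternatives MT-ND1 was called in 12 of 20, MT-CYTB in 14 of 20 and each other gene in 17 or 18. DESeq2 called 3 of the 6, a minimum of 10 counts in every library left none of the 3 then tested called, and 2 were called without WT replicate 2 or without Ctcf-cKO replicate 1. The difference of the genotype contrast between these sets was called for 0 of 6 genes and for 0.0% of all genes (edgeR, with 469 of 10783 genes at an unadjusted p under 0.05). Its values were 0.46 to 1.72, positive where the genotypes lay further apart in the low barcodes. Over the alternatives they ran from 0.14 to 3.16 for MT-CYTB and from -1.35 to 10.2 for MT-CO1. In simulated counts this test recovered 7 of 100 changes of 4-fold and 76 of 100 of 16-fold. The lack of calls therefore cannot show that the contrasts were equal. Calls with a mouse left out are given below.

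Elongating spermatid-like cells were the class in which the genotypes lay furthest apart in the genes' share, with a Ctcf-cKO mean 53.7 times the WT mean (35.2 times without WT replicate 1 and 113.1 times without WT replicate 2). The class rests on the batch correction, since without it 3 and 8 Ctcf-cKO cells were elongating spermatid-like and no fit was made. Of the 51 and 53 Ctcf-cKO cells of the class, 46 and 34 then lay in an unnamed cluster of Ctcf-cKO cells alone. Its leading genes were HBB-BS and, among the first 10, MT-CYTB, MT-ND4, MT-ND2 and MT-ND1, and 7 Leydig and 5 elongating spermatid markers were enriched in it. Of the WT cells, 37 of 39 and 17 of 19 stayed elongating spermatid-like. The share was 0.009%, 0.028%, 0.914% and 1.03% of counts, from 39, 19, 51 and 53 cells. The 95% Wilson intervals, which cover counting error only, were 0.0068 to 0.0109%, 0.0212 to 0.0360%, 0.878 to 0.951% and 0.985 to 1.08%. Of the WT cells, 25 of 39 and 12 of 19 had no count of any listed gene, against 0 of 51 and 0 of 53 in Ctcf-cKO. The median share per cell was 0% in both WT mice, against 1.15% and 1.72% in Ctcf-cKO. The WT cells were deeper (median 21652, 8242, 3337 and 1826 counts), and over all barcodes the share fell with depth in most mice. Counted per cell, the class held 1.74, 2.84, 46.9 and 36.5 counts of the list, so the genotypes lay less far apart in counts than in share. With each cell thinned to 500 counts, 7.69%, 5.26%, 98.0% and 96.2% of these cells held a count of the list, and without thinning 35.9%, 36.8%, 100% and 100%. Plateau barcodes thinned in the same way gave 28.5% and 51.8% in the WT mice (3840 and 1559 barcodes deep enough) and 96.4% in Ctcf-cKO replicate 1 (83 barcodes). In the WT mice fewer elongating spermatid-like cells than plateau barcodes of the same library thus held a count. In Ctcf-cKO replicate 1 nearly all did in both sets, so this measure cannot separate them, and in share of counts they stood at 0.914% and 5.26%.

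All 6 genes rose in this class by edgeR, where 16.9% of 2774 genes tested were called and both Ctcf-cKO mice lay above both WT mice in 31.8%. MT-CYTB was at 27.8, 102.3, 3413 and 3695 CPM, a log2 fold change of 6.14 (SE 0.288, adjusted p = 5.34e-27, edgeR). MT-ND4 was at 36.6, 133.0, 3604 and 4164 CPM, a log2 fold change of 5.84 (SE 0.282). MT-ND1 was at 13.9, 15.3, 1222 and 1448 CPM, with a difference of 6.46 (SE 0.342). The WT mice held few counts of each gene in this class, from 0 to 29. MT-ND2 had 1, 5, 165 and 142 counts. MT-CO1 had 5, 0, 27 and 17 counts (log2 fold change 4.23, SE 0.911). MT-ND5 had no count among 986939 in the WT cells and 70 among 449732 in Ctcf-cKO, so it was at least 51.2-fold higher when 3 counts over the group are taken as the floor. All 6 passed the filter on low counts through the Ctcf-cKO mice, and MT-CYTB and MT-ND4 alone had 10 counts in every mouse, so the number called adds nothing to the values.

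**Figure D3:**
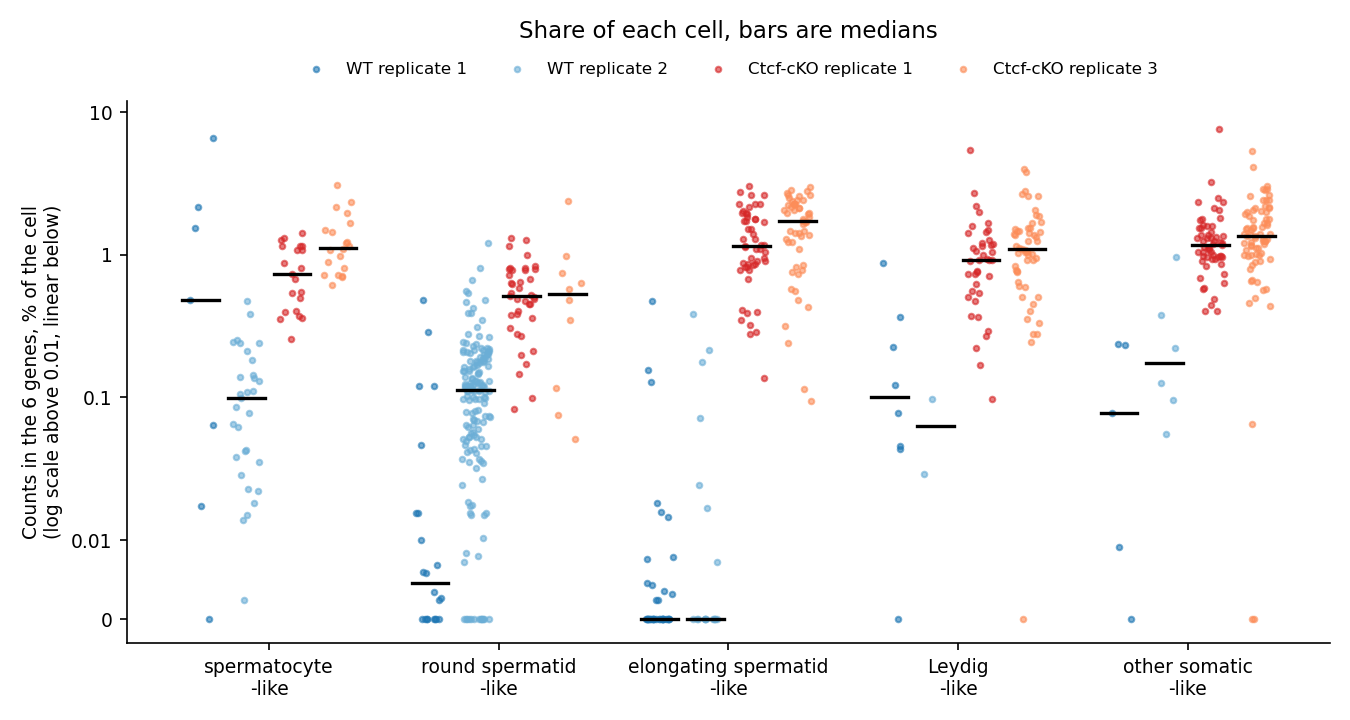
Share of counts from the 6 genes in each cell (percent, log axis above 0.01 and linear below), by class and mouse, 1 point per cell with the median as a bar. In the elongating spermatid-like class the medians are 0% in both WT mice, and 1.15% and 1.72% in Ctcf-cKO.

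In round spermatid-like cells the share was 0.011%, 0.099%, 0.449% and 0.191% of counts (22, 157, 39 and 10 cells), 5.81 times higher in the Ctcf-cKO mean (3.23 times without WT replicate 1 and 28.6 times without WT replicate 2). None of the 5 genes tested was called, nor was any of 6437 genes (0.0%, edgeR, with 212 at an unadjusted p under 0.05). MT-CYTB was at 45.4, 375.7, 1761 and 768.7 CPM, a log2 fold change of 2.44 (SE 0.898, adjusted p = 1, edgeR). For 5 of the 6 genes both Ctcf-cKO mice lay above both WT mice, as they did for 17.5% of all genes tested in this class. MT-CO1, with 1, 17, 7 and 0 counts, was the exception. The spread within WT was wide, with WT replicate 1 below WT replicate 2 in all 6 genes.

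Spermatocyte-like cells gave 0.708%, 0.084%, 0.604% and 1.3% of counts, from 7, 31, 21 and 20 cells. WT replicate 1 lay above Ctcf-cKO replicate 1 there. A single cell of WT replicate 1 held 631 counts of the list among 9621, or 6.56%, and without it that mouse was at 0.296%. In this class 1.45% of genes tested were called and none of the 6. MT-ND4 came closest, at 1795, 263.3, 2339 and 4980 CPM, with a log2 fold change of 2.02 (SE 0.806, adjusted p = 0.42, edgeR). It was also the only one of the 6 whose groups did not overlap, where both Ctcf-cKO mice lay above both WT mice in 18.5% of all genes tested.

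Somatic-like cells, Leydig-like and others together, gave 0.138%, 0.161%, 1.01% and 1.31% of counts, from 13, 8, 97 and 129 cells. None of 4632 genes was called there (0.0%, edgeR, with 285 at an unadjusted p under 0.05). MT-ND4 was at 304.8, 276.7, 3813 and 4929 CPM, a log2 fold change of 4.08 (SE 0.417, adjusted p = 0.0569, edgeR). MT-CYTB was at 383.5, 507.3, 3835 and 5268 CPM, with a difference of 3.56 and the same adjusted p. The groups did not overlap for 5 of the 6 genes, against 927 of all 4632 genes tested (20%) with both Ctcf-cKO mice above both WT mice, and MT-CO1 was at 137.7, 0, 118.0 and 106.2 CPM. Leydig-like cells, the androgen-making cells between the tubules, gave 0.239%, 0.055%, 0.799% and 1.19% from 8, 2, 40 and 54 cells, too few in WT replicate 2 for a fit. The other somatic-like cells gave 0.047%, 0.177%, 1.16% and 1.40%. They came from different clusters in the genotypes, namely 5, 3, 20 and 18 cells from a peritubular-like one, 0, 2, 5 and 28 from a macrophage-like one, and 0, 1, 32 and 29 from the macrophage-like one led by HBB-BS, with MT-ND5 among its first 10 genes. The unnamed cells gave 0.026%, 0.227%, 0.920% and 1.3%. Each of these sets, outside the reach of Stra8-iCre or unnamed, had both Ctcf-cKO mice above both WT mice.

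Between classes, in a fit with mouse as a block, all 6 genes were called higher in somatic-like than in round spermatid-like cells. Single mice went the other way for MT-ND4 and MT-CO1 in WT replicate 2 (200.8 against 235.5 and 0 against 6.47 CPM per kilobase). So did MT-ND5 in WT replicate 1 (0 against 4.44). The fitted differences ran from 1.68 (MT-ND4, SE 0.501) to 3.49 (MT-CO1, SE 1.09) on the log2 scale, in a comparison that called 21.8% of genes. Without WT replicate 1 only 1 was called, without either Ctcf-cKO mouse 2, and with at least 10 counts in every library 2 of 2 tested. Spermatocyte-like against round spermatid-like cells called 14.2% of genes and none of the 6, with differences of 1.45 (MT-ND5) to 1.78 (MT-ND1). Elongating against round spermatid-like cells called 29.3% of genes and 1 of the 6, MT-ND4, at 1.22 (SE 0.433, adjusted p = 0.0211, edgeR). That value averages over opposite directions. From round to elongating cells the mean CPM of MT-ND4 went from 184.2 to 84.8 in WT and from 1166 to 3884 in Ctcf-cKO. MT-ND4 was called in 8 of 18 alternatives. The call was lost with library totals alone, no filter, at least 10 counts, as many barcodes as the study counted cells, no doublets, free RNA subtracted, cells without red blood cell counts, and without WT replicate 1 or either Ctcf-cKO mouse. In the summed share, elongating lay below round spermatid-like cells in both WT mice and above them in both Ctcf-cKO mice. In WT replicate 1 the difference was within counting error, with 95% Wilson intervals of 0.0088 to 0.0141% in round and 0.0068 to 0.0109% in elongating spermatid-like cells. The test of that difference, added after seeing the data, called 0 of the 6 genes and 0.0% of all (edgeR, with 194 of 6221 genes at an unadjusted p under 0.05). Its values ran from 2.32 (MT-ND4, SE 0.898) to 7.76 (MT-ND5, SE 2.60, which depends on the prior count), with adjusted p of 0.564 to 1 (edgeR).

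**Figure D4:**
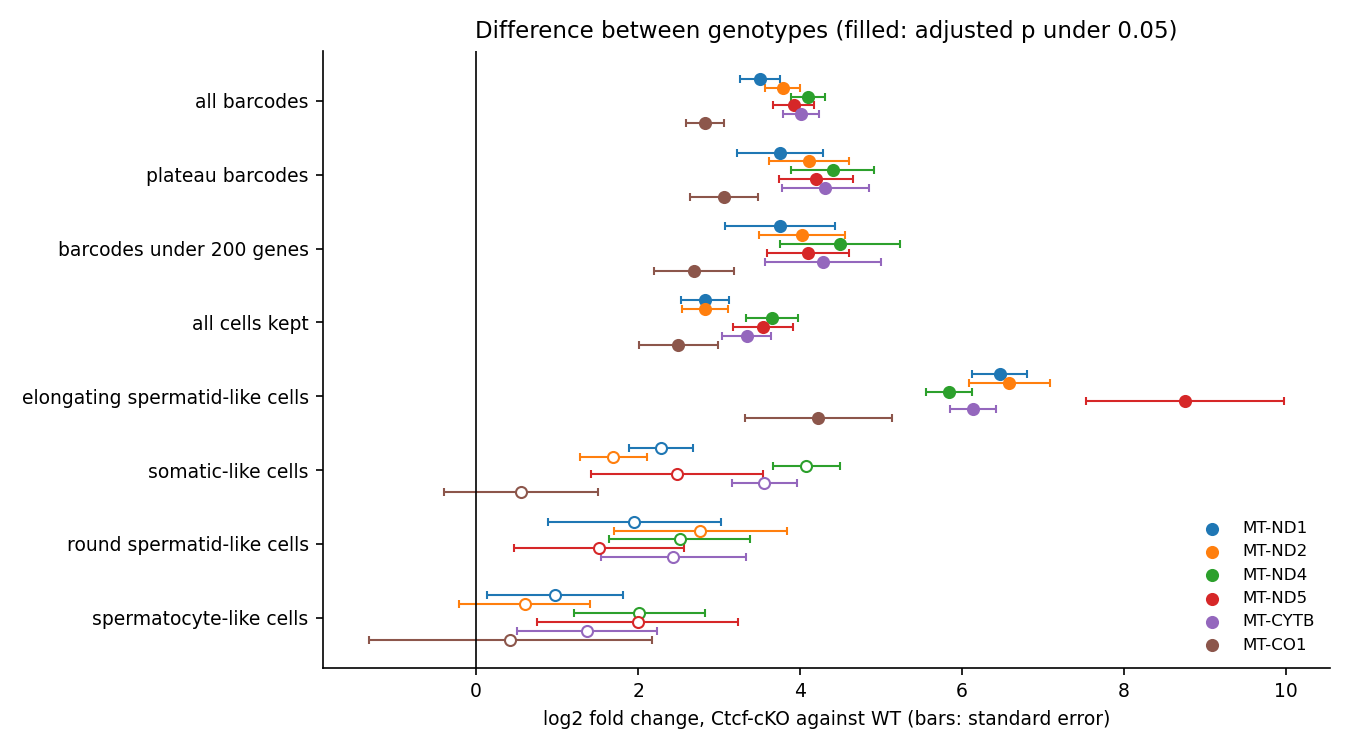
Log2 fold change of Ctcf-cKO against WT (x axis, bars are standard errors) for each counted gene, by set of barcodes or cell class, filled where the adjusted p is under 0.05 (edgeR). The values of the elongating spermatid-like cells (4.23 to 8.75, the top value being that of MT-ND5, which had no WT count and depends on the prior count) lie highest, and those of the spermatocyte-like cells run from 0.42 to 2.02.

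Most lists of markers of cells outside the germ line moved with the listed genes, but not the 8 endothelial markers. These summed to 12.6, 35.8, 22.9 and 53.2 CPM in elongating spermatid-like cells, where the groups overlapped, and over all barcodes 1 of 5 tested rose. In the same class the 13 Leydig markers summed to 68, 118, 2989 and 3030 CPM, with INSL3 and LHCGR at 0 in all 4 mice. The 14 macrophage markers summed to 173, 251, 2039 and 2444 CPM, and the 15 Sertoli markers to 75, 118, 1993 and 2274, with SOX9 and AMH at 0 in all mice. The 13 peritubular and fibroblast markers summed to 7.58, 25.6, 580.3 and 404.7 CPM. The 6 red blood cell markers summed to 3, 0, 8766 and 1400 CPM, with HBA-A2 and SLC4A1 at 0 in all mice. On the plateau the Leydig markers stood at 353, 392, 4463 and 4178 CPM and the red blood cell markers at 317, 41, 1238 and 1451. In round spermatid-like cells the Leydig markers stood at 109, 171, 2249 and 674 CPM, the same order of mice as for the listed genes. The elongating spermatid markers themselves summed to 270554, 271545, 208046 and 215767 CPM in their class. The part of such RNA in the listed genes' levels was not tested. Elongating spermatid-like cells without any red blood cell count, 22 and 23 in the Ctcf-cKO mice, held 1.0% and 0.831% of the listed genes, and those with one (29 and 30 cells) 0.862% and 1.24%. Split by Leydig marker counts, those without any (1 and 6 cells) held 0.136% and 0.700%, and those with one (50 and 47 cells) 0.930% and 1.11%. Over the named classes, cells with a Leydig count held the higher share in 5 of 8 such splits in the Ctcf-cKO mice and in 3 of 8 in the WT mice, and cells with a red blood cell count in 4 of 10 and 1 of 2. In the Ctcf-cKO mice the groups without a Leydig count held only 1 to 6 cells. One WT split, of Leydig-like cells, set 1 cell against 1, and the WT groups with a red blood cell count held 4 and 1 cells. These tallies therefore cannot tell whether the share goes with the markers.

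Nuclear genes of the same complexes differed less at the median. Of 84 nuclear encoded subunits, 80 were tested over all barcodes, where 28 rose and 5 fell (28.5% of all genes were called there), with a median log2 fold change of 0.44. COX7A1 (4.11, SE 0.851) and COX7B (3.55, SE 0.509), small subunits of complex IV, and CYCS (3.49, SE 0.616), the cytochrome c of somatic cells, changed most. COX6B2, the complex IV subunit of the testis, was among those that fell (-0.90, SE 0.191). On the plateau 9 of 79 rose and none fell (6.75% of all genes called), among barcodes under 200 genes 4 of 76 rose (6.42%), and over all cells kept 26 of 79 rose and 1 fell (19.2%). In elongating spermatid-like cells 8 of 44 rose and none fell, near the 16.9% called over all genes, with a median of 0.57 against 0.04 over all genes tested. NDUFC2 (6.29, SE 1.1) and NDUFA1 (5.56, SE 1.16), accessory subunits of complex I, and COX6C (3.29, SE 0.927), of complex IV, changed most. In spermatocyte-like (68 tested), round spermatid-like (68) and somatic-like cells (74) none was called, where 1.45%, 0.0% and 0.0% of all genes were. From round to elongating spermatid-like cells 4 rose and 15 fell of 72, where 29.3% of all genes were called, and NDUFS1 (-3.42, SE 1.18), COX6B2 (-2.44, SE 0.410) and NDUFA6 (-2.33, SE 0.484) changed most. From round spermatid-like to somatic-like cells 16 rose and 3 fell of 78, where 21.8% of all genes were called.

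Of 31 nuclear genes that transcribe, process or pack mitochondrial DNA, 27 were tested over all barcodes, where 2 rose and 2 fell (28.5% of all genes were called there), with a median log2 fold change of -0.12. SSBP1, which binds single-stranded mitochondrial DNA, had a difference of 4.70 (SE 1.15). HSD17B10, part of the enzyme that cuts precursor transcripts, had 3.28 (SE 0.363). MTERF2, of a family of transcription regulators, had -2.76 (SE 0.849). In elongating spermatid-like cells 2 were tested, where 16.9% of all genes were called. TFAM, which packs mitochondrial DNA and starts its transcription, fell there by 0.73 on the log2 scale (SE 0.198, adjusted p = 0.00495, edgeR). Between classes TFAM was higher in elongating than in round spermatid-like cells by 3.24 (SE 0.421), and MTERF3 was lower by 4.45 (log2 fold change -4.45, SE 1.16). In that comparison 29.3% of all genes were called. In spermatocyte-like, round spermatid-like and somatic-like cells none of the tested 6, 13 and 4 genes was called between genotypes. Of all genes tested there, 1.45%, 0.0% and 0.0% were called.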

How the data were processed

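Single cells from testes of 2 WT and 2 Ctcf-cKO mice had been barcoded in ddSEQ droplets. The authors aligned the 3′ reads to GRCm38, and the tables they deposited hold raw counts (whole numbers) for each gene symbol in each barcode. How molecules and multi-mapping reads were counted is not given in the sources used here. Cells had 200 to 7000 genes, at most 10% MT- counts and 3 times the plateau count. They were clustered in Seurat 5.3.0 (2000 variable genes, 15 components, Harmony written anew, resolution 0.9). A class name needed at least 3 enriched markers that made up over 50% of the markers of its list found in the data. The 33 Scrublet doublets (scanpy 1.11.5) stayed in.

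Sums per mouse and set, of at least 5 cells for a class, went into the quasi-likelihood F test of edgeR 4.0.16 (R 4.3.3) with filterByExpr and TMM, and mouse was a block between classes. P-values were adjusted by Benjamini-Hochberg over all genes tested, with 0.05 as the threshold. The SE was computed from F as |log2 fold change|/sqrt(F). Prior degrees of freedom were 5.5 (somatic-like cells) to 22.7 (barcodes under 200 genes) in the genotype comparisons other than elongating spermatid-like cells. They were 59.8 for the latter and infinite or nearly so in 3 comparisons between or across classes. All p-values thus lean on the spread over all genes, and most so in these last ones. Copies came from blastn 2.17.0 on GENCODE vM21 transcripts (at least 90% identity over 100 bases), and intervals from scipy 1.17.1.

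Named were the 10 genes, other MT- rows, nuclear copies and up to 3 genes per list with the largest change. COX6B2 was also named after its values were seen. Genes, lists and classes were chosen with earlier results of these data known. Alternatives were DESeq2 1.42.0, other scalings, filters, cell sets and clusterings, free RNA subtracted, and each mouse left out. The tests were checked on simulated counts.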

Additional observations from a re-analysis of the deposited data

Results flagged for a closer look

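The summed share of the 6 counted genes moved in opposite directions between round and elongating spermatid-like cells in the genotypes. The elongating minus round difference, in percentage points of counts, was -0.00259 and -0.0713 in WT replicates 1 and 2, and 0.465 and 0.838 in Ctcf-cKO replicates 1 and 3. In WT replicate 1 it was within counting error. By edgeR's interaction test no gene of the list passed, with values as given above, and Leydig and red blood cell markers moved the same way between the genotypes in both classes.

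Rows of mitochondrial DNA outside the list also held signal. MT-RNR1 and MT-RNR2, the ribosomal RNAs of the organelle, were at 70.6, 51.0, 551.1 and 596.2 CPM and at 66.4, 113.2, 1087 and 1209 CPM over all barcodes, with log2 fold changes of 3.30 and 3.74 (edgeR). MT-ND6, the complex I gene read from the opposite strand, had 3 counts in WT replicate 1, no row in WT replicate 2, and 17 and 18 counts in Ctcf-cKO, with a fitted value of 5.03 (adjusted p = 0.00578, edgeR). MT-TC had 2 counts in WT replicate 2 and MT-TQ 13 in Ctcf-cKO replicate 3.

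Nuclear rows that align to the listed genes were mostly near 0. GM13340, a pseudogene on chromosome 2 that aligns to MT-CO1, had 65, 44, 137 and 51 counts, with a log2 fold change of 2.23 (adjusted p = 0.0014, edgeR). GM13341, which aligns to MT-CO2, had 61, 24, 85 and 32 counts, with 1.96 (adjusted p = 0.00884, edgeR). Of the genes without a row, the near-identical copies of MT-CO2 and MT-ATP6 had next to none. Gm28438, the copy of MT-ND3, had no row in any mouse, and neither had Gm29216 and Gm28437, the copies of MT-CO1 and MT-CO3. GM28661, the copy of MT-CO2, had 0, 3, 1 and 0 counts, and GM10925, the copy of MT-ATP6, had 1, 0, 0 and 0. GM11410, GM11512, GM13339, GM4076 and GM43743 had at most 4 counts in any mouse.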

How the results depend on the processing

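Over all barcodes and on the plateau all 6 genes were called under every alternative tried, and 5 or 6 over all cells kept. In elongating spermatid-like cells 2 were called with at least 10 counts in every library, where 2 were tested, and 5 or 6 otherwise. Among barcodes under 200 genes 3 were called by DESeq2, and with at least 10 counts 3, where 3 were tested. In round spermatid-like cells 3 were called without a filter. In somatic-like cells 2 were called by DESeq2, 2 with library totals alone, 3 without a filter, 3 with at least 10 counts (4 tested), 1 without Scrublet doublets and 3 with counts divided by 4 and rounded up. Counts were divided because values of a gene in a barcode piled up at 1 to 4 (in Ctcf-cKO replicate 3, 20.5% of the genes' entries were 4 and 4.7% were 5).

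For elongating against round spermatid-like cells, 0 were called with library totals alone, no filter, at least 10 counts, as many barcodes as the study counted cells, no doublets, free RNA subtracted or cells without red blood cell counts, 4 with MT- rows kept in the clustering and 2 with counts divided. For spermatocyte-like against round spermatid-like cells, 1 was called by DESeq2, 1 with library totals, 1 without the highest cell, 1 in cells without red blood cell counts, 4 without a filter and 5 with counts divided. For somatic-like against round spermatid-like cells 2 were called with at least 10 counts, where 2 were tested. For barcodes under 200 genes against cells 3 were called by DESeq2 and 0 of 3 tested with at least 10 counts. The genotype difference between elongating and round spermatid-like cells was called for 3 genes with library totals, 1 with as many barcodes as the study counted cells and 3 with free RNA subtracted. Their cause was not tested.

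Leaving out 1 mouse, so that the spread between genotypes rests on the other genotype's pair, gave 4 to 6 calls under 200 genes, 5 to 6 in elongating, 0 to 3 in spermatocyte-like, 0 to 4 in round spermatid-like and 0 to 5 in somatic-like cells. It gave 0 to 4 for elongating and 0 to 4 for spermatocyte-like against round spermatid-like, 1 to 6 for somatic-like against round spermatid-like, 2 to 6 for barcodes under 200 genes against cells, 0 to 6 for the genotype difference between these (6 without WT replicate 2) and 0 to 3 for that between elongating and round spermatid-like cells.

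Direction reversed for some genes. In spermatocyte-like cells, leaving out 1 mouse gave -1.35 to 1.35 for MT-CO1 (-1.35 without Ctcf-cKO replicate 3, -0.74 without WT replicate 2), -0.28 to 2.35 for MT-ND2 (lowest without WT replicate 2) and -0.24 to 3.84 for MT-ND5 (lowest without Ctcf-cKO replicate 3), and free RNA subtracted gave -0.19 for MT-CO1. In somatic-like cells it gave -0.14 to 8.06 for MT-CO1 (lowest without WT replicate 2), and no batch correction -0.19. From round to elongating spermatid-like cells it gave -0.028 to 1.61 for MT-CYTB, -0.065 to 2.06 for MT-ND1 (both lowest without Ctcf-cKO replicate 3) and -0.68 to 1.69 for MT-ND5 (-0.68 without Ctcf-cKO replicate 1, -0.063 without replicate 3). For MT-CO1 the genotype difference between barcodes under 200 genes and cells was -1.35 to 10.2, lowest without WT replicate 1. Values against mice left at 0 counts depend on the prior count.

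The 10% mitochondrial filter left the same cells in or out. Without batch correction there was no value for spermatocyte-like and elongating spermatid-like cells, nor at resolution 0.5 for the latter. Without it 3 and 8 Ctcf-cKO cells were elongating spermatid-like, and the unnamed cluster that held most of the others had 228 cells. No paired analysis was possible because the genotypes share 1 replicate number, and it marks no shared animal. Shallow Ctcf-cKO libraries limit every class. Few WT counts of the list also limit elongating spermatid-like cells (68 and 54), somatic-like cells (140 and 70) and, in WT replicate 1, round spermatid-like cells (69).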
